A study of Mus musculus with 4 samples.

Results

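The genes described here encode the nuclear subunits of respiratory complexes I and III, cytochrome c and ATP synthase, and the assembly factors of complex I that carry the Ndufaf name. They were taken from the platform annotation as array rows with exactly 1 gene symbol that starts with Nduf, Uqcr or Atp5, or equals Cyc1 or Cycs. Where a gene had several rows, the brightest of them, by its average on the 4 arrays, was used. This gave 70 genes of the 22180 tested, namely 32 complex I subunits, 8 Ndufaf assembly factors, the pair Ndufa4 and Ndufa4l2, 8 complex III subunits, Cycs, 17 ATP synthase subunits and 2 pseudogenes. Keratinocytes, the epithelial cells of the epidermis, were cultured from C57BL/6J mice of 1 week of age. The donors of the Glut1-deficient cells were Glut1 fl/fl K14-Cre mice, in which keratin 14 regulatory sequence drives Cre in basal keratinocytes. The donors of the wild-type cells were Glut1 fl/fl mice, given without Cre in the series design, so both genotypes carry the floxed alleles. Glut1, encoded by Slc2a1, is a glucose transporter. Each genotype had 4 mice, and 2 plates of a genotype were pooled for each array, which gave 2 Glut1-deficient and 2 wild-type MoGene 2.0 arrays. The harvest followed 1 day after the cells were replated at equal number, and 1000000 Glut1-deficient and 1500000 wild-type cells were lysed per sample.

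In the inner mitochondrial membrane, complex I takes electrons from NADH, complex III passes them from ubiquinol to cytochrome c, and the proton gradient that builds up drives ATP synthase. Complexes I and III and ATP synthase combine many nuclear-encoded subunits with a few encoded by mitochondrial DNA. Complex I is built from modules by assembly factors that are not part of the finished enzyme. Basal keratinocytes are known for a strong use of glycolysis.

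Values are log2 intensities normalised by RMA, a method that sets all arrays to a common distribution, so each difference is relative to the other genes. A log2 difference of 1 is a doubling, and differences are taken between arrays for 1 row at a time. A bright or dim row describes its signal on the array and is not read as an amount of RNA relative to another gene. The arrays had medians between 4.07 and 4.11, and their number limits the precision. The deleted gene did not check the labels. The difference for the used row of Slc2a1 was -0.07 on the log2 scale (SE 0.0865, limma adjusted p = 0.675), and the sources used here do not say whether its probes lie in the deleted part. Of 9 keratinocyte markers tested, 3 had positive and 6 negative log2 fold changes, with a median of -0.29, and 0 passed in limma (6 with an unadjusted p under 0.05). Among the brightest of them, Krt14 had a log2 fold change of -0.37, Itga6 of -0.31 and Dsg3 of 0.47, and the genotypes did not overlap in any of these. All 10 fibroblast markers tested had positive log2 fold changes, but 0 passed in limma (7 with an unadjusted p under 0.05, beside 22.2% of all genes). The mean log2 value over that list was 6.35 and 5.73 on the Glut1-deficient arrays, against 5.12 and 4.95 on the wild-type arrays. For 7 melanocyte markers the mean was 6.05 and 6.17 on the Glut1-deficient arrays, against 5.38 and 5.17 on the wild-type arrays. Of these 7 markers, 4 rose in limma, beside 1.79% of all genes. No row on the arrays is at 0, the lowest log2 value being 1.333. The part of these cell types in the values below was not tested, and in pooled cultures fewer cells of a type and less RNA per cell cannot be told apart.

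Most of the 70 genes differed little between the genotypes. The median size of their log2 fold changes was 0.10, beside 0.14 over all genes. Some genes that did not pass still differed by more, such as Uqcrh at -0.60 and Uqcrq at 0.60. With 2 arrays per genotype, a gene that does not pass is not shown to be level. In the limma fit over all genes, 1 of the 70 genes rose in Glut1-deficient cells (Ndufa6), 0 fell and 69 did not pass at a Benjamini-Hochberg adjusted p of 0.05 (8 had an unadjusted p under 0.05). Over all genes 2.84% passed in either direction, 1.79% as rises and 1.05% as falls, and 22.2% had an unadjusted p under 0.05. At an adjusted p under 0.1 the count was 7 of 70, 3 higher and 4 lower in Glut1-deficient cells, beside 8.36% of all genes (4.62% higher and 3.75% lower). The share of these genes called was thus near the background at both thresholds.

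The median log2 fold change of the 70 genes was 0.006, and their middle 50% lay between -0.07 and 0.11. Over all genes tested the median was -0.007 and the middle 50% lay between -0.15 and 0.14. The 95% interval of the log2 fold change lay within -0.5 and 0.5 for 56 of the 70 genes (80.0%), against 59.2% of all genes. It lay within -1 and 1 for all 70. Both Glut1-deficient arrays were above both wild-type arrays for 17 genes and below them for 19, so the genotypes did not overlap for 36 of 70 (51.4%), beside 53.2% of all genes. Of the 64 genes above the median level of all genes, 1 passed and 35 (54.7%) did not overlap, beside 5.13% and 68.2% of all genes above that level. With a variance that follows intensity, limma called 8 of the 70, 3 as rises beside 6.06% of all genes and 5 as falls beside 5.98% (6.17% and 6.14% with robust estimation). Refitted on genes above the median level alone, it called 7 of 64, beside 21.0% of those genes (10.9% as rises and 10.0% as falls). The plot of log2 fold changes for all 70 genes shows where these lie by role.

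**Figure D1:**
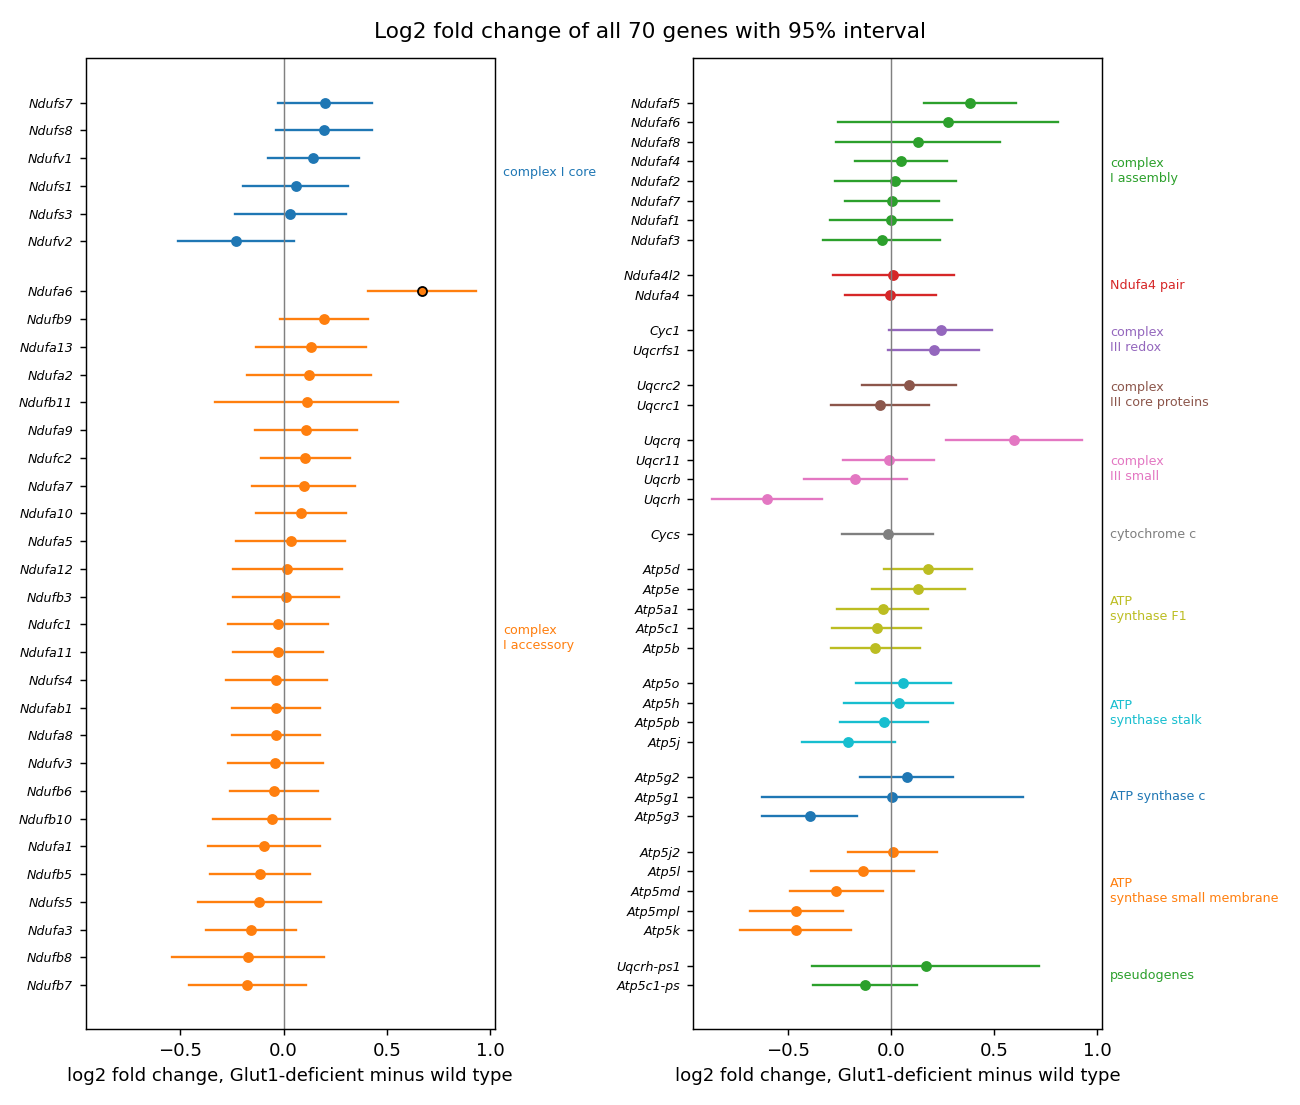
Log2 fold change (x axis, Glut1-deficient minus wild type) of the 70 genes, 1 per line, grouped by role. Points are estimates from 2 arrays per genotype, bars are 95% intervals of the limma fit, and a black outline marks an adjusted p under 0.05, which only Ndufa6 at 0.67 has.

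Promoter sequence is shown for 5 of the genes, namely the one that rose (Ndufa6), those with the most negative value in complex III and in ATP synthase (Uqcrh and Atp5k) and 2 of the genes for ATP synthase subunit c (Atp5g2 and Atp5g3). Sequences are the 250 bases before the annotated start, 5′ to 3′ on the gene's strand, from RefSeq on GRCm38.p6. Capitals mark letters that match, on either strand, the NRF1 motif, the ETS motif CCGGAAG bound by GABPA, or the CCAAT box, and none of these matches overlap.
Ndufa6 (chr15:82354292-82354541, minus strand): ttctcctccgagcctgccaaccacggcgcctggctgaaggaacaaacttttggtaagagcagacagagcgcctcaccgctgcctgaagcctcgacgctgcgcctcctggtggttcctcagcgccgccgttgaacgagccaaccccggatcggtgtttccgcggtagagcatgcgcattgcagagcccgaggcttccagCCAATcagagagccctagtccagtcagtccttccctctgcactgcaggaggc
Uqcrh (chr4:116075071-116075320, minus strand): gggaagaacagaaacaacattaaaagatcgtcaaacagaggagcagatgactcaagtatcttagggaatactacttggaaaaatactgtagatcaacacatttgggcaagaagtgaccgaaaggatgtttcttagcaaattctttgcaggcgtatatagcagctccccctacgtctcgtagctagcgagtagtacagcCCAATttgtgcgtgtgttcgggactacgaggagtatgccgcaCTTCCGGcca
Atp5k (chr5:108434400-108434649, minus strand): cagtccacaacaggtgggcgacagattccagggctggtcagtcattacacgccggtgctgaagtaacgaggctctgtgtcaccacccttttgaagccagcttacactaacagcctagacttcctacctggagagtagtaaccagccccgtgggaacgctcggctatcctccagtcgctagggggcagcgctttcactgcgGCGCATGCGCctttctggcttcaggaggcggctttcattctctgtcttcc
Atp5g2 (chr15:102671048-102671297, minus strand): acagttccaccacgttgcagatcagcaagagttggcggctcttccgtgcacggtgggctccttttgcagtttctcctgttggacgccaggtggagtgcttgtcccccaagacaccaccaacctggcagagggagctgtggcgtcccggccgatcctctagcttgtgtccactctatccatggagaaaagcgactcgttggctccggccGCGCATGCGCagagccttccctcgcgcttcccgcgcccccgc
Atp5g3 (chr2:73911327-73911576, minus strand): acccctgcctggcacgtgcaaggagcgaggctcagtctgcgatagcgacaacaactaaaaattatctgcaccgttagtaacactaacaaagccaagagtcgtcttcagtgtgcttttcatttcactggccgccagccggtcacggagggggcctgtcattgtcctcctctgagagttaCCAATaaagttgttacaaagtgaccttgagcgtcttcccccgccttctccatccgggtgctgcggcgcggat

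NRF1 and GABPA are transcription factors known to act at many genes of the respiratory chain. Of the 70 genes, 57 had a promoter in the RefSeq table. The NRF1 motif was in 9 of the 57 (15.8%), against 4.23% of the 27025 genes with a promoter, and the ETS motif in 11 (19.3%), against 7.83%. The CCAAT box was in 22 (38.6%), against 37.5%. The letters TGATGNAA, the core of the composite element that ATF4 binds with C/EBP factors, were in 0 of the 57, against 3.91% of all genes. A match is a description of the letters and not a site. The median log2 fold change was -0.03 for the 9 genes with the NRF1 motif, among them Atp5k and Atp5g2 on different sides of 0, and -0.001 for those without it. It was -0.01 for the 11 genes with the ETS motif and 0.0008 for those without it.

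Among the complex I subunits, Ndufa6 rose in Glut1-deficient cells and the other 31 did not pass. Ndufa6 encodes an accessory subunit of the LYR motif family that holds the mitochondrial acyl carrier protein in the complex. Its log2 value was 8.53 and 8.35 on the Glut1-deficient arrays, against 7.78 and 7.76 on the wild-type arrays. Both Glut1-deficient values stood above both wild-type values by more than the replicates of either genotype differed. The fold was 1.59 (log2 fold change 0.67, SE 0.101, limma adjusted p = 0.0476). Without any 1 array the log2 fold change lay between 0.58 and 0.76. Its direction could not change in these fits, since the genotypes do not overlap. Leaving out any of the 4 arrays, Glut1-deficient array 1 or 2 or wild-type array 1 or 2, ended the call. In each of these fits 0 of the 22180 genes passed (limma, 2948 to 4627 with an unadjusted p under 0.05) and the lone array was assumed to vary like the other genotype, so the loss is not particular to Ndufa6. The call was also lost when all 41345 rows were tested (limma adjusted p = 0.140), with the replicate number as a block (0.101) and with a plain pooled-variance statistic (0.245).

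The nuclear-encoded core subunits of complex I carry the flavin and the iron-sulfur clusters or line the quinone site. Of 6 of them tested, 5 had positive log2 fold changes, and 0 passed in limma (0 had an unadjusted p under 0.05). The core subunits encoded by mitochondrial DNA, ND1 to ND6 and ND4L, all had negative log2 fold changes, between -0.26 (ND6) and -0.02 (ND1). None of those passed either, and they are described below with the other mitochondrially encoded genes. Ndufs7, which holds the cluster next to the quinone, was at 10.13 and 10.15 on the Glut1-deficient arrays, against 9.99 and 9.89 on the wild-type arrays. Ndufs8, another iron-sulfur subunit, was at 9.55 and 9.47 on the Glut1-deficient arrays, against 9.35 and 9.28 on the wild-type arrays. Their log2 fold changes were both 0.20 (limma adjusted p = 0.270 for Ndufs7 and 0.285 for Ndufs8), and the genotypes did not overlap in either gene. Ndufv1, the flavin-binding NADH dehydrogenase subunit, had a log2 fold change of 0.14 and Ndufs1 one of 0.06. Ndufv2, the partner of Ndufv1 in the NADH-oxidising part, lay on the other side at -0.23, with 8.91 and 9.01 on the Glut1-deficient arrays and 9.29 and 9.09 on the wild-type arrays. The median of the 6 nuclear-encoded core subunits was 0.10, and that of the 26 accessory subunits was -0.03.

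Accessory subunits surround the core and stabilise it. Besides Ndufa6, the other 25 had log2 fold changes between -0.18 (Ndufb7) and 0.20 (Ndufb9), and 0 of these 25 passed. Ndufb9, another LYR motif subunit, had 11.57 and 11.58 on the Glut1-deficient arrays, against 11.38 and 11.37 on the wild-type arrays (log2 fold change 0.20, SE 0.0828, limma adjusted p = 0.256). The replicates of Ndufb9 stood closer together than the genotypes did. Ndufab1 encodes the acyl carrier protein that Ndufa6 and Ndufb9 bind. Ndufab1 was at 6.30 and 6.32 on the Glut1-deficient arrays and 6.36 and 6.33 on the wild-type arrays, a small difference without overlap. The 95% interval of its log2 fold change of -0.04 ran from -0.25 to 0.18. Ndufa9, a subunit next to the quinone site, had a log2 fold change of 0.11, Ndufa10 of 0.09, Ndufs4 of -0.03 and Ndufa13, also known as Grim19, of 0.13. Ndufs5, at 3.65 and 3.44 on the Glut1-deficient arrays and 3.73 and 3.59 on the wild-type arrays, and Ndufb11 had rows below the median level of the genes tested. Ndufs6, Ndufb1, Ndufb2 and Ndufb4 were not analysed here.

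Of the 8 Ndufaf assembly factors, 7 had positive log2 fold changes, but 0 passed in limma (1 had an unadjusted p under 0.05) and the genotypes overlapped in 7. Over all genes 10731 of 22180 had positive log2 fold changes. The genotypes did not overlap in 1 of the 8 (12.5%), beside 53.2% of all genes. The gene without overlap was Ndufaf5, whose product modifies an arginine of Ndufs7 during assembly. Ndufaf5 was at 5.49 and 5.54 on the Glut1-deficient arrays, against 5.16 and 5.11 on the wild-type arrays, which is a difference of 1.304-fold (log2 fold change 0.38, SE 0.0860, limma unadjusted p = 0.00687, adjusted p = 0.0930). Ndufaf8, a partner of Ndufaf5, was at 7.31 and 7.01 on the Glut1-deficient arrays and at 6.89 and 7.17 on the wild-type arrays, so its values crossed. Ndufaf6 had 5.50 and 6.10 on the Glut1-deficient arrays, against 5.51 and 5.54 on the wild-type arrays. Its log2 fold change of 0.28 thus came from Glut1-deficient array 2 alone.

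In the other assembly factors the genotypes overlapped, with log2 fold changes between -0.04 (Ndufaf3) and 0.05 (Ndufaf4). This does not show them to be level. Ndufaf1, which helps to build the membrane arm, was at 6.98 and 7.12 on the Glut1-deficient arrays and at 6.94 and 7.15 on the wild-type arrays. Ndufaf2, a paralogue of the subunit Ndufa12 that precedes it during assembly, was at 5.34 and 5.52 on the Glut1-deficient arrays and at 5.49 and 5.33 on the wild-type arrays. Their log2 fold changes were 0.0006 and 0.02. Ndufaf3 and Ndufaf4 act together on the quinone-binding module. Ndufaf3 was at 7.69 and 7.90 on the Glut1-deficient arrays and at 7.80 and 7.88 on the wild-type arrays. Ndufaf4 was at 7.52 and 7.44 on the Glut1-deficient arrays and at 7.42 and 7.44 on the wild-type arrays. Ndufaf7, a methyltransferase, was at 7.58 and 7.68 on the Glut1-deficient arrays and at 7.62 and 7.63 on the wild-type arrays (log2 fold change 0.005, 95% interval -0.22 to 0.23).

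Set against each other, the assembly factors had a median log2 fold change of 0.03 and the complex I subunits one of 0.01, a difference of 0.02. This is smaller than the spread between arrays, since the assembly factor median stood at -0.03 and 0.07 on the 2 Glut1-deficient arrays relative to the wild-type mean of each gene. Without Glut1-deficient array 2 the difference was -0.02. No test was made of it, since genes are not replicates. Of 8 other assembly factors of complex I, 0 passed in limma (0 with an unadjusted p under 0.05), and their median was -0.03.

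Ndufa4 and Ndufa4l2 carry complex I names, but Ndufa4 is now known as a subunit of complex IV, and Ndufa4l2 is its paralogue, known elsewhere as a gene induced by hypoxia. Ndufa4 was at 10.49 and 10.53 on the Glut1-deficient arrays and at 10.48 and 10.55 on the wild-type arrays. Ndufa4l2 was at 4.05 and 4.13 on the Glut1-deficient arrays and at 3.96 and 4.19 on the wild-type arrays, below the median level of the genes tested. The genotypes overlapped in both, with log2 fold changes of -0.004 (95% interval -0.22 to 0.22) and 0.01 (95% interval -0.28 to 0.30).

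Of the 8 complex III genes tested, 0 passed in limma (2 had an unadjusted p under 0.05), and these 2, Uqcrh and Uqcrq, lay on opposite sides of 0. Uqcrh encodes the acidic hinge protein at the docking site of cytochrome c. Its log2 value was 6.79 and 6.98 on the Glut1-deficient arrays, against 7.51 and 7.46 on the wild-type arrays, 1.52-fold lower (log2 fold change -0.60, SE 0.104, limma unadjusted p = 0.00227, adjusted p = 0.0584). Uqcrq, a small subunit that lies against cytochrome b, was at 6.19 and 6.03 on the Glut1-deficient arrays, against 5.64 and 5.39 on the wild-type arrays, 1.51-fold higher (log2 fold change 0.60, SE 0.127, limma adjusted p = 0.0844). In both genes the genotypes did not overlap. RefSeq lists 2 pseudogenes of Uqcrh, and similar sequence can share probes with such copies.

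The nuclear-encoded subunits of complex III that carry redox groups both had positive log2 fold changes, while CYTB, the mitochondrially encoded cytochrome b, was at -0.08 (limma adjusted p = 0.621). Cyc1, cytochrome c1, was at 8.39 and 8.30 on the Glut1-deficient arrays, against 8.04 and 8.17 on the wild-type arrays. Uqcrfs1, the Rieske iron-sulfur protein, was at 7.17 and 7.12 on the Glut1-deficient arrays, against 6.96 and 6.92 on the wild-type arrays. The genotypes did not overlap in either, but the log2 fold changes of 0.24 and 0.21 did not pass (limma adjusted p = 0.237 for Cyc1 and 0.247 for Uqcrfs1). The core proteins Uqcrc1 and Uqcrc2, which have no redox group, were at -0.05 and 0.09. Among the small subunits, Uqcr11 had a log2 fold change of -0.01 and Uqcrb of -0.17. The 8 log2 fold changes had a median of 0.04. Cycs, the soluble cytochrome c that also takes part in apoptosis, was at 11.05 and 11.06 on the Glut1-deficient arrays and at 11.11 and 11.03 on the wild-type arrays (log2 fold change -0.02, 95% interval -0.24 to 0.21). Uqcr10 was not analysed here.

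**Figure D2:**
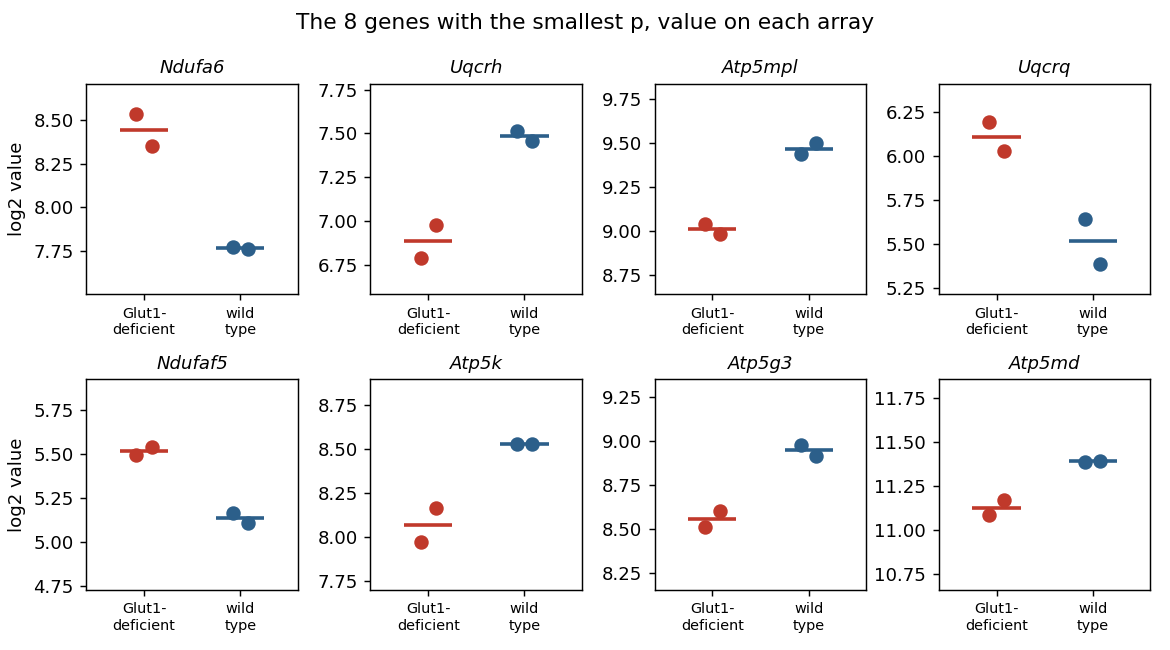
Log2 value (y axis, each panel spans 1.2 log2 units) on each array for the 8 genes with the smallest p, Glut1-deficient arrays left and wild-type arrays right. Points are arrays and lines are genotype means of 2 arrays. The genotypes do not overlap in any of the 8, which goes with their choice by p, and 53.2% of all genes do not overlap. Ndufa6 alone has an adjusted p under 0.05.

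Among the 17 ATP synthase subunits 0 passed in limma and 4 had an unadjusted p under 0.05, a share near the 22.2% of all genes. Above the median level, where 16 of the 17 lie, 3591 of 11090 genes had such a p, a larger share. The 4 subunits had negative log2 fold changes and belong to the membrane part of the enzyme. Atp5mpl, a small proteolipid, was at 9.04 and 8.98 on the Glut1-deficient arrays, against 9.44 and 9.50 on the wild-type arrays, 1.37-fold lower (log2 fold change -0.46, SE 0.0871, limma adjusted p = 0.0687). Atp5k, subunit e at the interface of ATP synthase dimers, was at 7.97 and 8.17 on the Glut1-deficient arrays, against 8.53 and 8.53 on the wild-type arrays, 1.38-fold lower (log2 fold change -0.46, SE 0.104, limma adjusted p = 0.0937). RefSeq lists 4 pseudogenes of Atp5k, so its probes may not be particular to it. Atp5md, also known as Dapit, was at 11.08 and 11.17 on the Glut1-deficient arrays, against 11.39 and 11.39 on the wild-type arrays, 1.20-fold lower (log2 fold change -0.26, SE 0.0868, limma adjusted p = 0.174).

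The remaining small membrane subunits were Atp5l, subunit g, at -0.14 and Atp5j2, subunit f, at 0.008. The Atp5j2 row was dim, at 4.04 and 4.00 on the Glut1-deficient arrays and at 4.02 and 4.01 on the wild-type arrays. The 5 small membrane subunits had a median log2 fold change of -0.26. In 4 of them both Glut1-deficient arrays lay below both wild-type arrays, beside 27.7% of all genes and 4021 of 11090 genes above the median level. This grouping by position in the enzyme was applied with the values known, so its median is a description.

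Subunit c, the proton-carrying ring, is encoded by Atp5g1, Atp5g2 and Atp5g3, which give the same mature protein with different import sequences. Atp5g3 was at 8.51 and 8.60 on the Glut1-deficient arrays, against 8.98 and 8.92 on the wild-type arrays, 1.31-fold lower (log2 fold change -0.39, SE 0.0893, limma unadjusted p = 0.00721, adjusted p = 0.0949). Atp5g2 was at 11.14 and 11.09 on the Glut1-deficient arrays and at 11.08 and 11.00 on the wild-type arrays (log2 fold change 0.08, 95% interval -0.15 to 0.30). Atp5g1 had 5.94 and 5.75 on the Glut1-deficient arrays, both inside the span of 5.49 and 6.19 on the wild-type arrays, so its interval was wide (-0.62 to 0.64). Whether Atp5g3 differs from Atp5g2 in its response was not tested.

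In the F1 head and central stalk, where ATP is made, log2 fold changes stayed between -0.07 and 0.18. Atp5b, the catalytic beta subunit, was at 11.95 and 11.93 on the Glut1-deficient arrays and at 12.02 and 12.01 on the wild-type arrays (log2 fold change -0.07, 95% interval -0.29 to 0.14). Atp5a1, the alpha subunit, had a log2 fold change of -0.04 and Atp5c1, the gamma subunit of the rotor, one of -0.07. Atp5d and Atp5e, the small rotor subunits delta and epsilon, were on the other side of 0 with 0.18 and 0.13. In the peripheral stalk Atp5j, coupling factor 6, was at 5.94 and 6.01 on the Glut1-deficient arrays, against 6.16 and 6.21 on the wild-type arrays (log2 fold change -0.21, limma adjusted p = 0.258). Atp5pb, Atp5h and Atp5o of that stalk lay between -0.03 and 0.06. The median was -0.04 for F1 and -0.08 for the 12 subunits of the membrane part and stalk, a difference of -0.05, while over all genes it was -0.007.

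**Figure D3:**
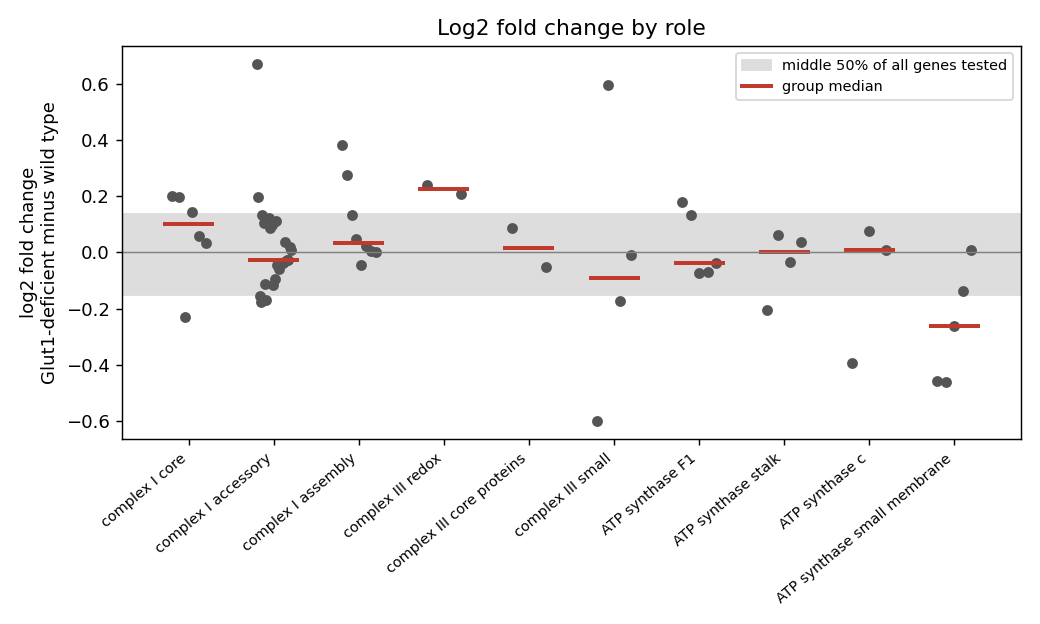
Log2 fold change (y axis, Glut1-deficient minus wild type) of each gene by role in its complex, with the group median as a red line and the middle 50% of all genes tested, -0.15 to 0.14, as a grey band. The 5 small membrane subunits of ATP synthase have a median of -0.26 and the complex I accessory subunits one of -0.03.

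The group medians were also taken array by array. The median over complex I subunits was -0.008 and -0.005 on Glut1-deficient arrays 1 and 2, relative to the wild-type mean of each gene, against 0.002 and -0.002 on wild-type arrays 1 and 2. For complex III it was 0.002 and 0.07 on the Glut1-deficient arrays, against 0.02 and -0.02 on the wild-type arrays. The ATP synthase median was -0.05 and -0.06 on the Glut1-deficient arrays, against 0.0006 and -0.0006 on the wild-type arrays. Replicates of these genes were close. The median absolute difference between replicate arrays was 0.08 for the Glut1-deficient pair and 0.06 for the wild-type pair, against 0.13 and 0.11 over all genes. Over all genes above the median level, where 64 of the 70 lie, that difference was 0.10 and 0.08.

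**Figure D4:**
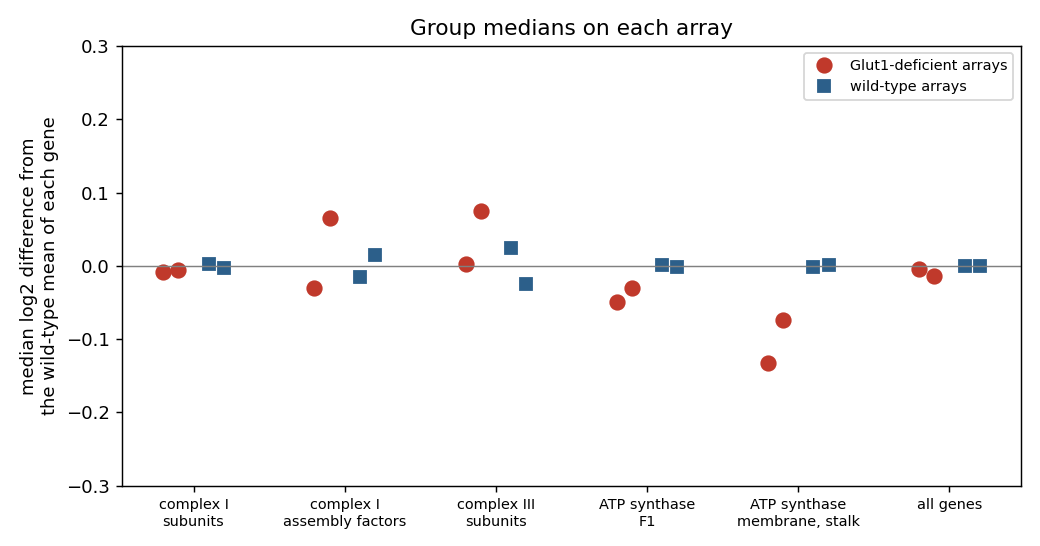
Median over each group of the log2 difference from the wild-type mean of each gene (y axis), on the Glut1-deficient arrays (circles) and the wild-type arrays (squares). The membrane part and stalk of ATP synthase stood at -0.13 and -0.07 on the Glut1-deficient arrays, and the complex I subunits at -0.008 and -0.005.

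Further rows of the same genes gave a check on the chosen ones. The 70 genes had 81 rows, and 8 genes had more than 1. Of the 11 further rows, 4 had a log2 fold change of the opposite sign, and the largest size among the 11 was 0.24, in a row of Atp5e. Ndufa8 was the gene with a further row that differed in sign from the used one by over 0.2. Its used row was at 9.79 and 9.79 on the Glut1-deficient arrays, against 9.82 and 9.83 on the wild-type arrays, and its other row was at 7.56 and 7.58, against 7.30 and 7.47. The log2 fold changes were -0.04 and 0.18. The further rows of Cycs also differed among themselves, from -0.17 to 0.07, and 2 of them hold identical values. The genes with the 8 smallest p had 1 row each. The pseudogene rows were the dimmest of the set, with Uqcrh-ps1 at 2.73 and 2.68 on the Glut1-deficient arrays and at 2.84 and 2.22 on the wild-type arrays, and Atp5c1-ps at 2.94 and 2.80 on the Glut1-deficient arrays and at 3.04 and 2.94 on the wild-type arrays. In the row named Uqcrh-ps1 the genotypes overlapped.

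Other genes of the pathway are given for comparison. Of 8 complex II genes 0 passed in limma (1 with an unadjusted p under 0.05), and their median was -0.10. Sdhb, the iron-sulfur subunit, was at 8.66 and 8.54 on the Glut1-deficient arrays, against 8.07 and 8.06 on the wild-type arrays (log2 fold change 0.53, limma adjusted p = 0.0567), while Sdha, the flavoprotein it binds, had -0.04. Of 17 complex IV subunits, a list that includes Ndufa4, 1 rose in limma, beside 1.79% of all genes. An unadjusted p under 0.05 was found for 4 of the 17, beside 22.2% of all genes. The gene that rose was Cox6a2, the muscle form of subunit 6a, at 7.37 and 6.996 on the Glut1-deficient arrays, against 4.78 and 4.62 on the wild-type arrays. The median of that list was -0.09, and Cox7a2l, a factor of complex III and IV supercomplexes, stood at 0.67 (limma adjusted p = 0.0533). Of 6 complex III assembly factors 0 passed in limma (1 with an unadjusted p under 0.05), with a median of 0.15 and Lyrm7, which inserts the Rieske protein Uqcrfs1, at 0.37. Of 6 ATP synthase assembly factors and regulators 0 passed (limma, 3 with an unadjusted p under 0.05), 4 had positive log2 fold changes and the median was 0.05. Fmc1, which supports F1 assembly in yeast, was at 0.40, Oxa1l, which inserts proteins into the inner membrane, at 0.27 and Tmem70, needed for the c ring, at -0.24.

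The 10 genes encoded by mitochondrial DNA that were tested lay between -0.26 (ND6) and 0.02 (COX3), with a median of -0.06 and 0 past limma's test (0 with an unadjusted p under 0.05). In 8 of them both Glut1-deficient arrays lay below both wild-type arrays, beside 27.7% of all genes. Among genes above the median level, where all 10 lie, this held for 4021 of 11090. Their mean log2 levels lay between 11.57 and 13.18. Among 14 regulators of mitochondrial biogenesis 0 passed in limma (0 with an unadjusted p under 0.05), 12 had negative log2 fold changes, and the median was -0.11. The gene of NRF1, Nrf1, was at -0.05, that of the GABP subunit Gabpa at -0.14, the mitochondrial transcription factor Tfam at -0.15 and the estrogen-related receptor Esrra at 0.20.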

How the data were processed

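The deposited values are log2 intensities, 1 per transcript cluster. The submitters' processing notes name RMA and Affymetrix Expression Console, without versions. RMA corrects the background and applies quantile normalization, so a shift of all genes would be removed. No scanner files or batch labels were used. Of 41345 rows, 23521 had 1 gene symbol and gave 22180 genes. The fit left out 1814 rows with several symbols and 16010 with no symbol.

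Genotypes were compared with lmFit and eBayes of limma 3.58.1 (R 4.3.3), without an intensity trend, Glut1-deficient minus wild type, two-sided, on all genes, with Benjamini-Hochberg adjustment over all of them and a threshold of 0.05. "Rose" and "fell" are used for genes that passed. An exact permutation test of 2 against 2 arrays cannot go below 0.333. Arrays are pools of plates, and p-values measure only the spread between these pools. The genes and lists were chosen with earlier results of these data known. Values on each array are given for the 14 genes with the smallest p, the assembly factors, the brightest and dimmest rows, paralogue sets and genes whose rows disagree. A few further genes were named after their values were seen. Promoters are RefSeq sequences of GRCm38.p6 and were searched on both strands. Same-numbered arrays did not deviate together (r = -0.03 over genes).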

Additional observations from a re-analysis of the deposited data

How the results depend on the processing

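The number of genes called depended on how the variance was estimated. The 630 calls over all genes became 2671 with the variance following intensity (2729 with robust estimation), 2327 among genes above the median level, 1855 at a threshold of 0.1, 37 with the replicate number as a block, and 0 with the plain pooled-variance statistic (3646 at an unadjusted p under 0.05), with every row tested in limma (6694 at an unadjusted p under 0.05), or without any 1 array in limma (2948 to 4627 at that p). The 1 call among the 70 genes became 8 with the variance following intensity, with or without robust estimation, 7 of 64 among genes above the median level, 7 at a threshold of 0.1, and 0 with the replicate block (limma adjusted p of Ndufa6 0.101), the plain statistic, every row tested or any 1 array left out (limma). The 8 calls were Ndufa6, Uqcrq and Ndufb9 as higher and Uqcrh, Atp5mpl, Atp5k, Atp5g3 and Atp5md as lower in Glut1-deficient cells, which is 11.4% of the 70 genes beside 12.0% of all genes in that fit (12.3% with robust estimation). Among genes above the median level 21.0% of all genes passed. The other 3 normalizations, the mean of a gene's rows, the rows with several symbols and leaving out the pseudogenes, the last added after seeing the data, gave 1 call. None of the 14 genes with the smallest p changed sign in any alternative, but this was largely fixed in advance. In each of these genes the genotypes did not overlap, so leaving out an array could not turn the sign. Other variance estimates and thresholds leave the fold change as it is. Medians near 0 moved by more than their small spread between arrays. The complex I median of 0.014 was 0.0094 with quantile normalization, 0.031 with cyclic loess, 0.040 with the mean of a gene's rows, 0.010 with rows of several symbols, and -0.0079 to 0.013 without any 1 array. The complex III median of 0.038 was -0.010 with rows of several symbols and 0.002 to 0.074 without any 1 array. The ATP synthase median of -0.039 was -0.013 with quantile normalization, -0.0058 with cyclic loess, -0.054 among genes above the median level, -0.085 for the membrane part and stalk alone (added after seeing the data), and -0.068 to -0.029 without any 1 array. Without any 1 array the assembly factor median ranged from -0.031 to 0.083 and its difference from the complex I median from -0.023 to 0.082. The cause of these moves was not tested, apart from the fewer arrays or rows used. With 2 arrays per genotype the precision is limited, and 6 of the 70 genes had rows at or below the median level.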
